A study of Homo sapiens with 5 samples.

Results

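DbSCL, a form of the transcription factor SCL that is defective in DNA binding, was compared with empty vector in TF-1 cells under 2 cytokines, Steel factor (SF) and erythropoietin (Epo). TF-1 is an established human erythroleukaemia line that depends on a cytokine for growth. For each probe set, the mean of the DbSCL arrays under SF and Epo was set against the mean of the vector arrays under the same cytokines, and the genes described are those in which the SF difference and the Epo difference agreed. The comparison used 4 of the 5 arrays of the series, 2 a side. The fifth array, vector cells under GM-CSF, took no part in the differences and is given beside them. It entered only the filter on low signals. Of 22283 probe sets, 19065 carried a single gene symbol, and the 11752 of these (8323 genes) whose mean signal over the 5 arrays exceeded a log2 value of 4.45 were tested.

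Vector cells carried the retrovirus MSCV-GFP, and DbSCL cells carried the construct that the labels call MSCV-DbSCL or DbSCL-GFP. All cells were kept in GM-CSF, deprived of it overnight and then stimulated for 6 h. SF was used at 20 ng/mL and GM-CSF at 5 ng/mL, while no dose of Epo is given. The labels state neither whether transduced cells were sorted or cloned nor how many infections were made, and each combination of construct and cytokine was read on 1 array. There were thus no repeats within a combination, and the error of a pooled difference rests on the disagreement between its SF and Epo parts, moderated by that of other probe sets of like signal. The study used the comparison to find genes regulated by SCL.

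SCL, encoded by TAL1, is a basic helix-loop-helix (bHLH) protein needed for the formation of blood cells and for the erythroid lineage. It pairs with an E protein such as the products of TCF3 and TCF12, and the pair binds the E-box motif CANNTG through the basic regions of both partners. With LMO2, LDB1 and GATA1 or GATA2 it forms complexes at composite E-box and GATA sites in erythroid genes. ID proteins have a helix-loop-helix and no basic region, so that they pair with E proteins and hold them away from DNA.

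Promoters are shown for 4 genes described below, because SCL complexes are known to use the E-box, CANNTG, and the site of GATA factors. The GATA site was searched only in the form AGATAA, and its other forms were neither marked nor counted. The windows are the 250 bases before the annotated start in RefSeq on GRCh38.p14. They lie at chr2:8681806-8682055 on the plus strand for ID2, chr3:4979187-4979436 on the plus strand for BHLHE40, chr11:5234484-5234733 on the minus strand for HBD and chr6:33200617-33200866 on the plus strand for SLC39A7. Capitals mark CANNTG or AGATAA on either strand.
ID2: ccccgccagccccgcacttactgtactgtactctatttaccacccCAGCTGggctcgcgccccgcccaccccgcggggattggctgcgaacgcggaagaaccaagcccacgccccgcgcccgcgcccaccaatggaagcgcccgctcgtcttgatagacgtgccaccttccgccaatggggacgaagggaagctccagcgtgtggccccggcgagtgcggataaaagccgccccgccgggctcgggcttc
BHLHE40: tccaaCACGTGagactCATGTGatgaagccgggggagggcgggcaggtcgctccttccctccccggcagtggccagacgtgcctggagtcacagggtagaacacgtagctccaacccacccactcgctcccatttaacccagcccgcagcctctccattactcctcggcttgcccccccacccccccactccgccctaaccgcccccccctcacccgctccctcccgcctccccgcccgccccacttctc
HBD: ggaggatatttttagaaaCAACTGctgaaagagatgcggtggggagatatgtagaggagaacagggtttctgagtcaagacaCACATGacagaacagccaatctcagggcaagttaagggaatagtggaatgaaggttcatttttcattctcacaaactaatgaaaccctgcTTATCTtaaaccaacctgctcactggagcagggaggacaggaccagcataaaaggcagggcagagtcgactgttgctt
SLC39A7: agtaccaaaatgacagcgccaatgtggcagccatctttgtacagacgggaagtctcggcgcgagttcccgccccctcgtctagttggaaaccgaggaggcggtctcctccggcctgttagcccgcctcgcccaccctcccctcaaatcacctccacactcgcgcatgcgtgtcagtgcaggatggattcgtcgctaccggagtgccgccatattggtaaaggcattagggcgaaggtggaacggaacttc
ID2 held 1 E-box, BHLHE40 held 2, HBD held 2 together with 1 AGATAA match read on the other strand, and SLC39A7 held none of these letters. Over the 99 promoters listed for 53 of the 59 genes lower with DbSCL, 60.6% held CANNTG, against 55% of 10134 promoters of tested genes and 61.8% of all 35116 promoters. AGATAA was in 14.1% of them, against 5.66% of the promoters of tested genes and 9.17% of all promoters. For the 8 higher genes, 6 matched with 9 promoters, of which 22.2% held AGATAA and 55.6% CANNTG, so the GATA letters were not limited to the lower genes. The letters CAGATG, which are also counted as CANNTG, were in 12.1%, against 9.17% and 12.2%. Several genes have more than 1 listed start with overlapping windows, so these promoters are not independent, and a match describes letters and not a binding site.

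The arrays differed in their controls as well as in their genes. Bacterial hybridization controls averaged 10.02 and 9.58 on the vector SF and Epo arrays, 10.57 and 9.78 on the DbSCL SF and Epo arrays, and 10.53 on the GM-CSF array. Signal from 28S ribosomal RNA was 6.55 and 5.80 on the vector arrays, 7.07 and 6.69 on the DbSCL arrays and 7.82 under GM-CSF. For beta-actin, the 3' probe set minus the 5' one is a measure of RNA integrity and labelling. It gave 1.89 and 2.74 in vector, 3.33 and 3.01 with DbSCL and 2.63 under GM-CSF. Within each cytokine these 3 measures were higher with DbSCL. The 18S signal was 8.38 and 7.57 in vector, 8.31 and 8.23 with DbSCL and 8.97 under GM-CSF, so with DbSCL it was lower by 0.07 under SF and higher by 0.66 under Epo. The part of these controls in the results was not tested. Of the TF-1 markers on the array 11 of 12 were above the filter, including CD34, KIT, GATA1 and GATA2, and MPO was below it. Of the markers of other blood cells, all 5 of T lymphocytes were above it with means of 5.39 to 5.63, all 4 of megakaryocytes with means of 6.69 to 6.97, 1 of 3 of B lymphocytes and 0 of 2 of monocytes. Collagen genes of fibroblasts passed in 2 of 3 cases and endothelial markers in 2 of 4, with means of 5.03 to 5.17 and of 4.94 to 5.02.

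DbSCL cells had lower signals for the bHLH inhibitor ID2, the leukocyte phosphatase PTPRC, the haem-binding protein HEBP1, the scavenger receptor CD36 and delta globin, and higher signals for the ETS factor ERG and the zinc transporter SLC39A7. A probe set was counted when its difference was at least 1.5-fold in the same direction under both cytokines. By this rule 64 probe sets of 59 genes were lower with DbSCL, 0.545% of those tested, and 8 probe sets of 8 genes were higher, 0.0681%. The pooled log2 differences ran from −1.53 to −0.61 among the lower probe sets, with a median of −0.76, and from 0.60 to 1.5 among the higher ones, with a median of 0.84. Over all tested probe sets the median was 0.00, and the 5th and 95th percentiles were −0.42 and 0.29. With either cytokine alone, 4.1% of tested probe sets were 1.5-fold lower under SF and 2.78% under Epo, and 1.61% and 0.783% were higher. At 2-fold in both, 2 probe sets were lower (0.017%), those of ID2 and PTPRC, and 1 was higher (0.00851%), that of TCF3. Both vector arrays were above both DbSCL arrays in 62 of the 64 lower probe sets, against 16% of all tested. They were below both in 5 of the 8 higher ones, against 14.8%. The rule itself favours such separation, so it is no further support for a counted gene. After quantile normalization of the arrays, the split was 41 lower and 11 higher. A lower signal in such a bulk sample cannot tell fewer cells that express a gene from less RNA per cell.

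No single gene passed the test across all probe sets. A limma fit with cytokine as a block called 0 of 11752 probe sets at an adjusted p of 0.05 (Benjamini-Hochberg), and the smallest adjusted p, 0.60, was shared by 1517 probe sets, all the counted ones among them. ID2 had the smallest p before adjustment, 0.000954. Without adjustment 928 probe sets, or 7.9%, had p under 0.05. The fit had 1 residual degree of freedom, and 44.9% of the tested probe sets held exactly equal values on at least 2 of the 4 arrays. Among the 6472 probe sets without such ties, a subset chosen after seeing the data, 1 was called, ID2 with an adjusted p of 0.0217 in limma. Its adjusted p over 15 alternatives ran from 0.0217 to 1, and its difference from −1.64 to −1.12. The counts that follow are therefore descriptions of 4 arrays.

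**Figure D1:**
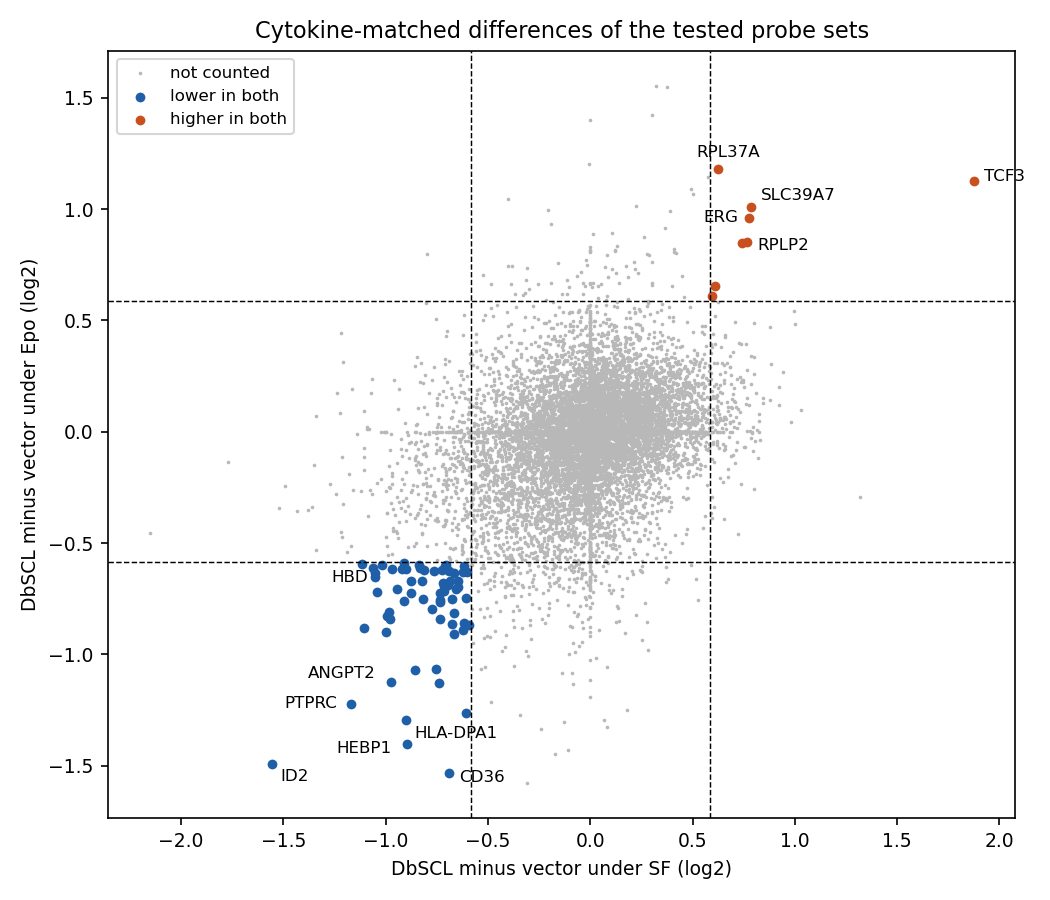
Log2 difference of DbSCL minus vector under SF (horizontal) and under Epo (vertical) for 11752 tested probe sets, 1 point each, with dashed lines at 1.5-fold. The 64 probe sets lower in both (blue) outnumber the 8 higher in both (orange), and ID2 at −1.56 and −1.49 lies farthest out in the lower corner.

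Inhibitors of bHLH proteins held the gene with the largest agreeing difference. ID2 read 8.11 and 8.28 in vector cells under SF and Epo, and 6.56 and 6.79 in DbSCL cells. Both vector arrays were above both DbSCL arrays, by differences of −1.56 and −1.49, which gives a pooled difference of −1.53 ± 0.09 (the moderated standard error of the limma fit, SE), or 2.88-fold. A second, weaker ID2 probe set read 6.54 and 6.46 in vector and 5.86 and 5.71 with DbSCL, a pooled difference of −0.71. BHLHE40, a bHLH repressor that also responds to hypoxia, read 6.52 and 6.81 in vector and 5.53 and 6.00 with DbSCL (−0.99 and −0.81, pooled −0.90 ± 0.09 SE). Its other probe set stood at 4.45 to 4.67, just above the filter, and differed by 0.01. ID1 lay lower by less, at −0.23 and −0.54, and ID3 was below the filter on all arrays (3.40 to 3.77). Of the 9 probe sets of this list 5 (55.6%) were below 0 under both cytokines and 0 above, against 25.3% and 23.5% of all tested. The 5 include the 3 counted probe sets of ID2 and BHLHE40, which the rule chose for this. The median of the 9 was −0.22.

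The SCL complex itself showed few agreeing differences. TAL1 read 8.31 and 8.59 in vector and 8.29 and 8.31 with DbSCL, and its second probe set 7.49 and 7.56 in vector and 7.55 and 7.75 with DbSCL. Neither probe set showed an excess of TAL1 RNA of 1.5-fold in DbSCL cells, and where they lie relative to the introduced sequence was not determined, so they do not check the labels. LMO2, a bridging protein, differed by −0.08 and −0.37, and LDB1, the protein that joins complexes at distant sites, by 0.00 and 0.11. GATA1 differed by −0.18 and GATA2 by −0.28 in the pooled comparison. TCF12 had differences of opposite sign under the cytokines, at −0.28 and 0.19. RCOR1, a corepressor partner, was lower by 0.52 and 0.68 on the log2 scale and missed the rule under SF. Of 46 probe sets for 24 complex and partner genes, 13 (28.3%) were below 0 under both cytokines and 14 (30.4%) above, against 25.3% and 23.5% of all tested probe sets.

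Both agreeing genes of this group were higher. ERG, an ETS factor of blood stem cells and megakaryocytes, read 5.78 and 5.95 in vector and 6.56 and 6.91 with DbSCL, a pooled difference of 0.87 ± 0.09 (SE), or 1.83-fold. Its other probe set was higher by 0.13 and 0.22. TCF3, an E protein gene, had the largest positive difference of all in 1 probe set, which read 7.74 and 6.60 in vector and 9.62 and 7.73 with DbSCL (pooled 1.5 ± 0.25 SE). The DbSCL Epo array was no higher there than the vector SF array, so the groups overlapped. The other 10 tested TCF3 probe sets gave pooled differences of −0.04 to 0.49, and the outlying one was named TCF3 by the array annotation alone. The mean over the probe sets of TCF3 was 0.34 higher with DbSCL. Leaving out 1 array, with no cytokine term, also unbalanced the cytokines. The outlying probe set then moved to 0.55 without DbSCL SF, 0.93 without vector Epo and 2.45 without DbSCL Epo. Its 5 arrays stood in the same order as those of RPLP2 and COX5B, from GM-CSF, the highest, through DbSCL SF, vector SF and DbSCL Epo to vector Epo, and GM-CSF and vector Epo were also the ends of the 28S signal. What this probe set measures was not checked.

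Of the receptors, KIT, which binds SF, read 7.04 and 7.02 in vector and 6.33 and 6.62 with DbSCL. All 3 vector arrays, with GM-CSF at 6.79, were above both DbSCL arrays, and the pooled difference was −0.55 ± 0.12 (SE), short of the rule under Epo. EPOR, the Epo receptor, differed by 0.39 under SF and −0.12 under Epo. LYN, a SRC family kinase downstream of KIT and the Epo receptor, was the counted gene among 23 tested genes of KIT signalling, with 2 probe sets. The brighter one read 9.58 and 9.83 in vector against 8.84 and 8.99 with DbSCL (−0.73 and −0.84), and the other read 7.22 and 7.45 against 6.47 and 6.39 (−0.75 and −1.06). The third LYN probe set was lower too, at −0.44 and −0.52. The 36 probe sets of the KIT list had a median of −0.04. Under both cytokines 14 (38.9%) were below 0 and 5 (13.9%) above, against 25.3% and 23.5% of all tested. The 14 include the 2 counted LYN probe sets.

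Globin and haem genes lay more often on the lower side than on the higher, among the 21 of 29 listed genes that were tested. HBG1, a gamma globin gene, had no probe set with a single symbol and was not measured here. HBD, delta globin, read 10.01 and 9.89 in vector and 8.97 and 9.17 with DbSCL (−1.04 and −0.72, pooled −0.88 ± 0.14 SE). Both vector arrays were above both DbSCL arrays, as in most lower probe sets that the rule chose. The 3 HBB probe sets, for the closely related beta globin, had pooled differences of −0.35, −0.20 and −0.15, and sequences as similar as these can hybridize to each other's probes. HEBP1 read 6.89 and 7.39 in vector and 6.00 and 5.99 with DbSCL, so that the groups were 0.89 apart under SF and 1.40 under Epo (pooled −1.15 ± 0.18 SE). ALAS1, the housekeeping form of the first enzyme of haem synthesis, was at −0.53 and −1.07 and missed the rule under SF. FECH, which inserts iron into haem, gave −0.41 and −0.68 in 1 probe set and −0.04 and −0.15 in the other, while PPOX was higher by 0.25 and 0.24. In this list 16 of 31 probe sets, 51.6%, were below 0 under both cytokines and 12.9% above, against 25.3% and 23.5% of all tested. The 16 include the 2 counted probe sets of HBD and HEBP1, which the rule chose for this.

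Surface proteins of blood cells made up a further group. PTPRC, the receptor phosphatase CD45 of leukocytes, read 8.48 and 8.96 in vector and 7.31 and 7.74 with DbSCL (pooled −1.20 ± 0.09 SE, or 2.29-fold). Its second probe set gave −1.22 and −0.45, and a weak one −0.10 and −0.20. CD36, a fatty acid and thrombospondin receptor found on erythroid progenitors, read 6.53 and 7.22 in vector and 5.84 and 5.68 with DbSCL. Its difference was larger under Epo (−1.53) than under SF (−0.69), whereas its other probe set was the reverse (−0.36 and −1.43). HLA-DPA1, the alpha chain of an MHC class II molecule, read 8.66 and 9.28 in vector and 7.76 and 7.98 with DbSCL (pooled −1.10 ± 0.15 SE), and its other probe set gave −0.31 and −1.58. HLA-DPB1, which encodes its partner chain, differed by 0.00 and 0.12, and the 21 class II probe sets had a median of 0.00. CD44, an adhesion receptor, was below 0 under both cytokines in 5 of 6 probe sets, with pooled differences of −0.75 to −0.17. None was counted, and the share below 0 under both was 25.3% over all tested probe sets. CD44 was picked with its values in view, and its probe sets read the same RNA.

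FCER1A, the alpha chain of the IgE receptor of mast cells and basophils, read 7.18 and 7.28 in vector and 6.37 and 6.53 with DbSCL (pooled −0.78 ± 0.08 SE). HDC, the histamine-forming enzyme of the same cells, was on the other side at 0.46 and 0.60. ANGPT2, a ligand of the endothelial receptor TEK, read 6.07 and 6.12 in vector and 5.09 and 5.00 with DbSCL (−0.97 and −1.12, pooled −1.05 ± 0.08 SE). Both groups were tight relative to the gap between them, but the rule chose genes with agreeing differences, so this is no further support. The endothelial diaphragm gene PLVAP was at −1.21 and −0.47 and missed the rule under Epo. The mast cell list had a median of 0.05 over 19 probe sets and the endothelial list −0.00 over 12.

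Other named genes came from several processes. RAB27A, a GTPase of secretory granules and melanosomes, was counted in 2 probe sets, at −0.95 ± 0.07 (SE) and −0.74, and its other one gave −0.68. RAB27A read 7.09 and 7.58 in vector and 6.36 and 6.82 with DbSCL in the brighter counted one. With no cytokine term, the probe set at −0.95 gave −0.58 without DbSCL SF and −0.63 without vector Epo. The RNA-binding protein gene CELF2 read 9.26 and 9.65 in vector and 8.52 on both DbSCL arrays (pooled −0.93 ± 0.15 SE), and its other probe sets gave −0.51 and −0.54. PLAGL1, an imprinted zinc finger gene, read 8.31 and 8.72 in vector and 7.33 and 7.88 with DbSCL, a pooled −0.91, with −0.71 and −0.62 in its other probe sets. These 3 genes lay below vector in every tested probe set.

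STK26, a kinase of the germinal centre family, read 8.60 and 9.0 in vector and 7.60 and 8.18 with DbSCL (pooled −0.91 ± 0.10 SE). LXN, latexin, an inhibitor of carboxypeptidases, read 6.92 and 7.40 in vector and 6.06 and 6.33 with DbSCL (pooled −0.96 ± 0.10 SE). RCBTB1 read 6.31 and 6.56 in vector and 5.20 and 5.68 with DbSCL (pooled −0.99 ± 0.10 SE). For these genes both vector arrays were above both DbSCL arrays, as in 62 of the 64 lower probe sets that the rule chose. UBE2G1, a ubiquitin-conjugating enzyme, read 7.72 and 8.38 in vector and 7.11 on both DbSCL arrays. However, its other probe set gave a pooled −0.25 against −0.94 here, which became −0.61 without vector Epo and the cytokine term.

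ACTR3, a subunit of the Arp2/3 complex that nucleates actin, was bright, at 11.68 and 11.79 in vector and 10.84 and 11.19 with DbSCL (pooled −0.72 ± 0.11 SE). Its second counted probe set gave −0.63 and the third −0.57. Among 42 probe sets of tubulins and the actin cytoskeleton, 52.4% were below 0 under both cytokines and 14.3% above, against 25.3% and 23.5% of all tested. The 2 counted ACTR3 probe sets are among those below 0. GTF2H5, the smallest subunit of TFIIH, read 7.27 and 7.44 in vector and 6.21 and 6.82 with DbSCL. Its pooled difference was −0.84, or −0.53 without DbSCL SF and the cytokine term. It was the counted gene of 9 tested TFIIH genes, whose 10 probe sets had a median of −0.08. PGK1, a glycolytic kinase, was counted in its weakest probe set (pooled −0.77), while its brighter probe sets differed little under SF (0.13 and −0.02) and by −0.78 and −0.74 under Epo.

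**Figure D2:**
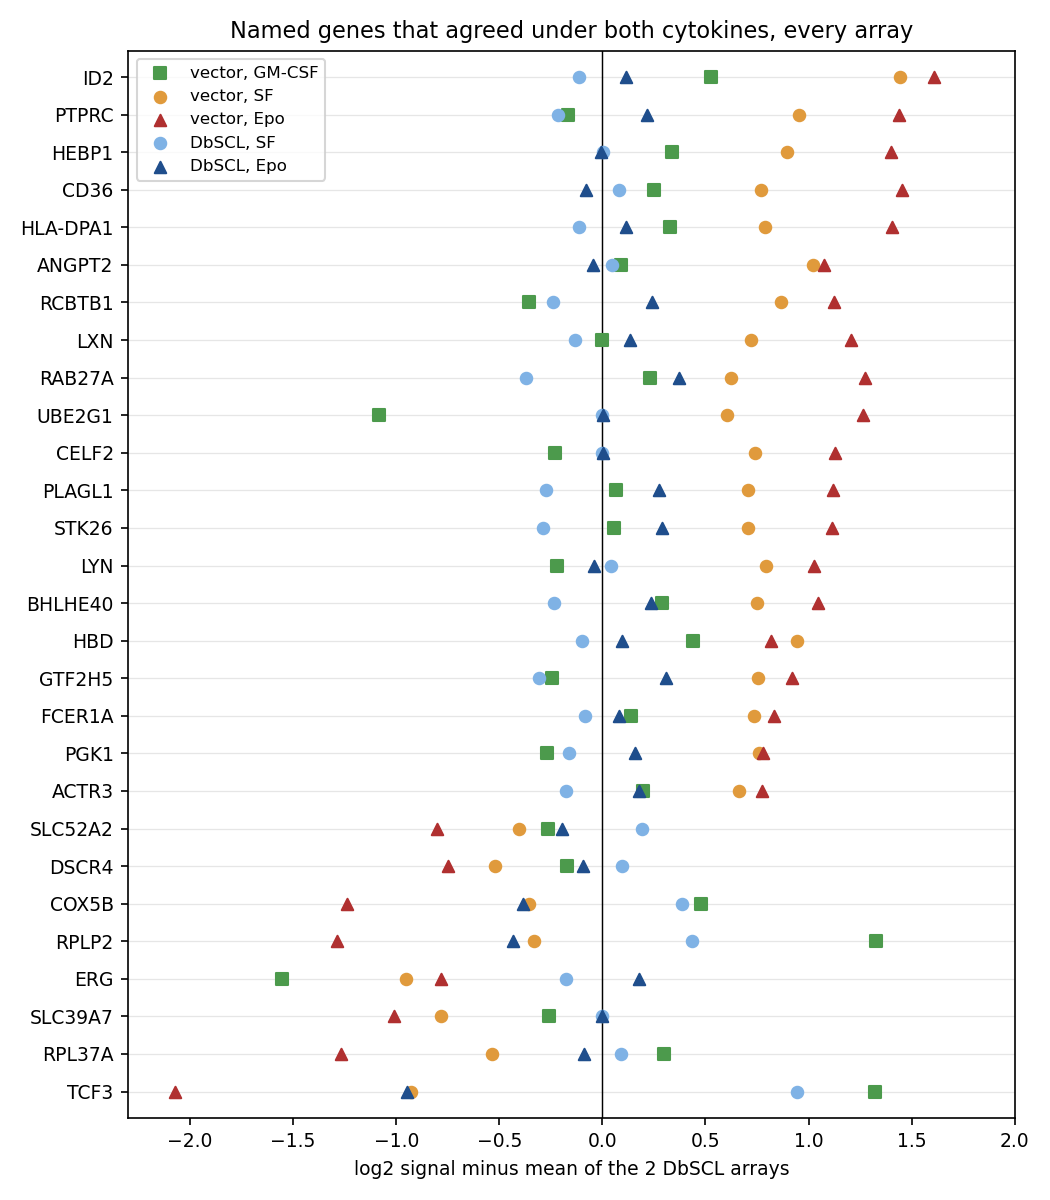
Log2 signal of each of the 5 arrays minus the mean of the 2 DbSCL arrays, for the 28 named genes counted under both cytokines, 1 probe set a gene. Vector SF (orange circles) and vector Epo (red triangles) lie to the right of 0 in the 20 lower genes and to the left in the 8 higher ones, and the vector GM-CSF array (green squares) lies mostly near 0.

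The other 39 lower genes, with 40 probe sets, had pooled differences of −0.85 to −0.61. The following examples were picked with their values in view. VIM, the intermediate filament vimentin, read 8.86 and 8.88 in vector and 8.15 and 8.17 with DbSCL, a difference of −0.71 and −0.72. RHEB, the GTPase that activates mTORC1, was at −0.70 and −0.69 in 1 probe set. Its brightest gave −0.25 and −0.27, and a weak one was higher, at 0.19 and 0.14. PAK2, a kinase that acts on the cytoskeleton, was at −0.72 and −0.68. Its other probe sets gave −0.95 and −0.44, and −0.43 and −0.01 in the brightest. SNX4, a sorting nexin of endosomes, was counted in both of its probe sets (pooled −0.76 and −0.73). GCLM, the modifier subunit of the enzyme that begins glutathione synthesis, was at −0.82 and −0.67. At the edge of the rule, PAPOLA was counted with −0.91 and −0.59, while RHOBTB3 with −0.58 and −0.60 was not.

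The smaller group of higher genes agreed less across probe sets. SLC39A7, a zinc transporter of the endoplasmic reticulum, read 6.29 and 6.07 in vector and 7.08 on both DbSCL arrays, a pooled difference of 0.90 ± 0.10 (SE). SLC52A2, a riboflavin transporter, read 8.73 and 8.33 in vector and 9.32 and 8.94 with DbSCL (pooled 0.60), and its other probe set was higher by 0.13 and 0.58. DSCR4 read 5.21 and 4.98 in vector and 5.83 and 5.64 with DbSCL (pooled 0.63). In these 3 genes, in ERG and in RPL37A both vector arrays were below both DbSCL arrays. RPLP2 and RPL37A, cytosolic ribosomal proteins, and COX5B, a subunit of cytochrome c oxidase, were higher by a pooled 0.81, 0.90 and 0.80. Their matched differences under SF and Epo were 0.77 and 0.85 for RPLP2, 0.74 and 0.85 for COX5B and 0.62 and 1.18 for RPL37A. The settings that follow had no cytokine term, so leaving out or adding an array also unbalanced the cytokines. Such values hold the gap between SF and Epo, and reliance on 1 array cannot be read from them. RPLP2 gave 0.33 without vector Epo, 0.37 without DbSCL SF, 1.25 without DbSCL Epo, 1.29 without vector SF and 0.10 with GM-CSF as a further vector array. COX5B gave 0.35 without vector Epo, 0.41 without DbSCL SF and 1.24 without vector SF, and RPL37A gave 0.53 without vector Epo.

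For RPL37A the brightest probe set (13.17 to 13.38) differed by −0.11, so its direction turned with the choice of probe set. COX5B had 3 other probe sets, at −0.14, −0.30 and 0.07. RPLP2 read 6.79 and 5.83 in vector and 7.56 and 6.68 with DbSCL, with the DbSCL Epo array below the vector SF array. Over 84 probe sets of 52 cytosolic ribosomal protein genes, the median was −0.06. Under both cytokines 27 (32.1%) were below 0 and 12 (14.3%) above, against 25.3% and 23.5% of all tested. Ribosomal protein genes have many processed copies, which similar probes may read.

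**Figure D3:**
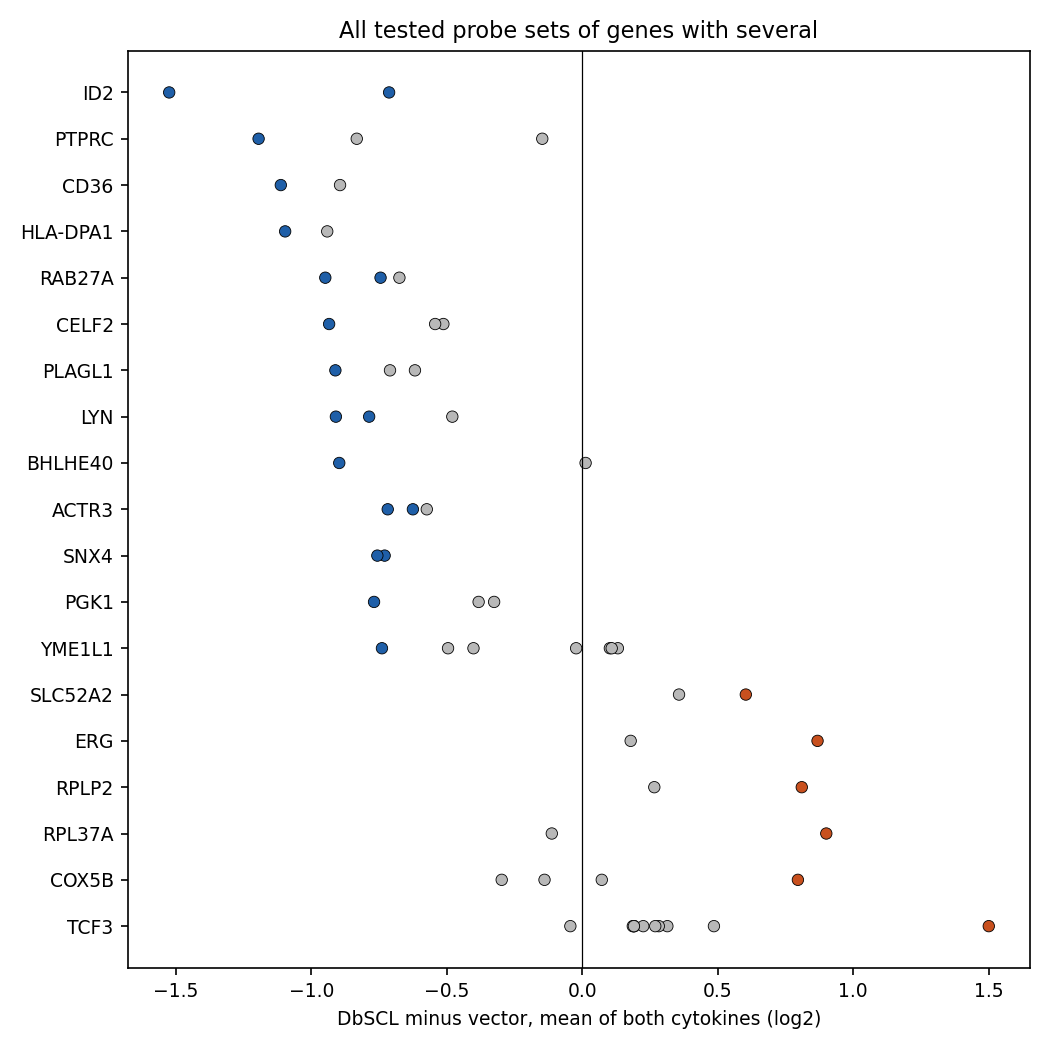
Pooled log2 difference (DbSCL minus vector, mean of SF and Epo) of every tested probe set of 19 genes with several, 1 point a probe set, coloured where counted (blue lower, orange higher). The probe sets of ID2, RAB27A, LYN and ACTR3 all lie below 0, whereas the counted TCF3, RPL37A and COX5B probe sets stand apart from the others of their gene.

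Probe sets that the rule did not count gave a check of the signal of some genes on the same arrays. The 28 lower genes with further tested probe sets had 52 of them, and 40 of these, 76.9%, were below 0 under both cytokines against 25.3% of all tested. Their median was −0.35, with a range of −0.94 to 0.19, and 6 were above 0 under both. The 29 lower genes with a single tested probe set had no such check. Of the 17 further probe sets of higher genes 8, or 47.1%, were above 0 under both against 23.5% of all tested, with a median of 0.19. TCF3 held 10 of the 17, and of the other 7 probe sets 2 were above 0 under both. Probe sets of a gene share the RNA and the arrays and are no replicates, so they check its signal and not an effect of DbSCL.

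The GM-CSF array had the vector and not DbSCL, and it often read near the DbSCL arrays. In the 64 lower probe sets it was above both DbSCL arrays in 14, between them in 29 and below both in 21. All 3 vector arrays were thus above both DbSCL arrays in 14 lower probe sets of 13 genes, where the same held for 3.69% of all tested. With the vector SF and Epo arrays already above both DbSCL arrays, it held in 434 of 1881 tested and 14 of 62 lower ones. The median of GM-CSF minus the DbSCL mean was −0.07, and that of GM-CSF minus the vector mean under SF and Epo was −0.89. GM-CSF was the lowest of the vector arrays in 63 of the 64, against 40.8% of all tested probe sets, and nearer the DbSCL than the vector mean in 62, against 67.5%. The vector SF and Epo arrays that chose these probe sets also enter these counts, so nothing about DbSCL is read from them. On the GM-CSF array the hybridization and 28S controls were above those of both other vector arrays, as they were with DbSCL within each cytokine. The beta-actin measure, 2.63 under GM-CSF, lay between those of the other vector arrays and below both DbSCL arrays. The part of these controls was not tested.

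ID2 kept the widest gap with GM-CSF included among lower genes. It read 7.20 under GM-CSF, between vector and DbSCL and 0.41 above the higher DbSCL array, and the second ID2 probe set read 5.95, above by 0.09. LYN in its bright probe set read 9.36 and HBD 9.51, above both DbSCL arrays by 0.37 and 0.34. HEBP1 read 6.33 (gap 0.34), HLA-DPA1 8.20 (0.22) and CD36 6.01 (0.17). RAB27A read 7.09 under GM-CSF in its brighter counted probe set, equal to vector SF, with a gap of 0.27. FCER1A, BHLHE40 and ANGPT2 had gaps of 0.06, 0.05 and 0.04, so GM-CSF was almost level with a DbSCL array there.

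Other lower genes lost the separation from vector once GM-CSF was included. PTPRC read 7.35 under GM-CSF, between the DbSCL values of 7.31 and 7.74. UBE2G1 read 6.03, 1.08 below the DbSCL mean, and RCBTB1 5.09 and CELF2 8.29 were also below both DbSCL arrays. Of the 39 lower genes outside the naming rule, 2 probe sets had GM-CSF above both DbSCL arrays, 23 between and 15 below. WDR44 and PLAC8 were the 2, at gaps of 0.22 and 0.07.

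Among the higher genes, the GM-CSF array divided them evenly. ERG read 5.18 under GM-CSF, its lowest value on the 5 arrays, and its lower DbSCL array was 0.61 above the highest vector array. SLC39A7 read 6.82 under GM-CSF and was below both DbSCL arrays by 0.26, DSCR4 by 0.08 and SLC52A2 by 0.07. TCF3 at 10.00, RPLP2 at 8.45, COX5B at 8.55 and RPL37A at 8.31 were instead higher under GM-CSF than on both DbSCL arrays. Over all tested probe sets 4.33% had all 3 vector arrays below both DbSCL arrays. Among the 1734 with the vector SF and Epo arrays already below both DbSCL arrays, 509 had GM-CSF below them too. The vector SF and Epo arrays also chose the higher genes, so nothing about DbSCL is read from these shares.

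**Figure D4:**
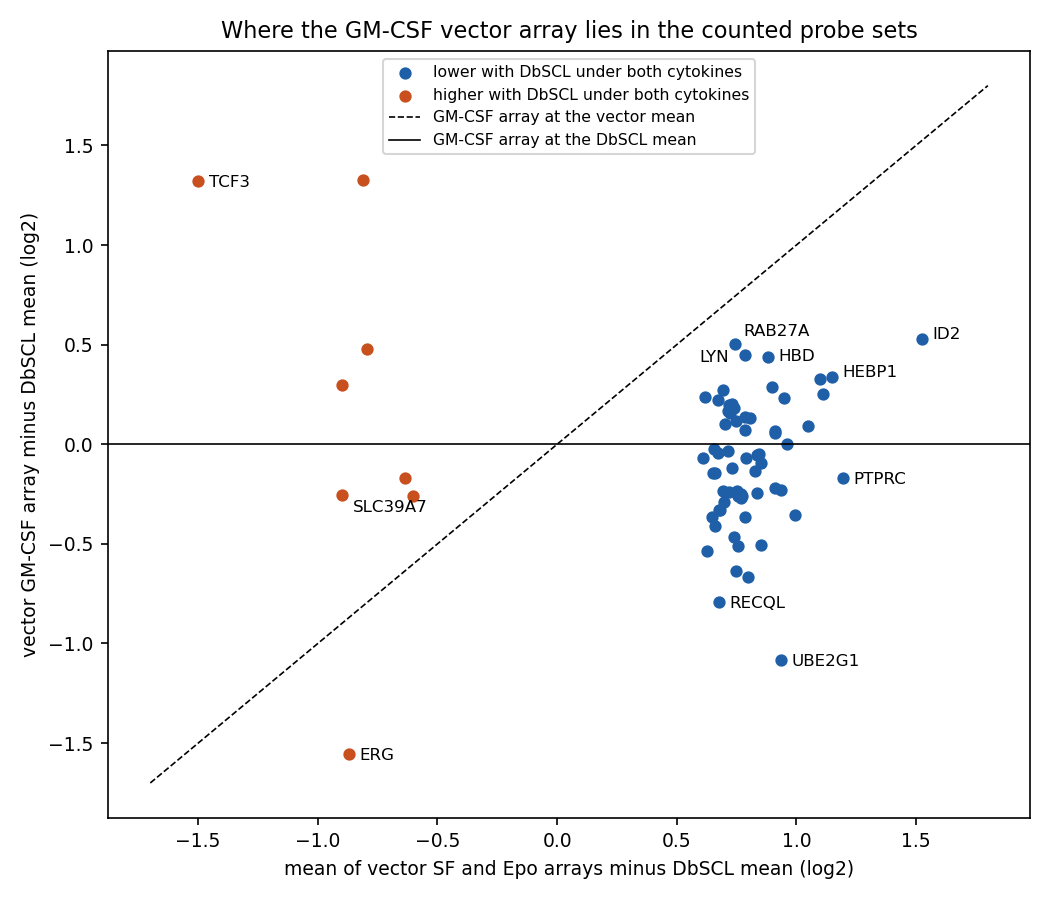
For the 72 counted probe sets, the vector mean under SF and Epo (horizontal) and the vector GM-CSF array (vertical), each minus the DbSCL mean, in log2. Lower probe sets (blue) scatter around the solid line, where GM-CSF equals the DbSCL mean, with a median of −0.07, and ERG (orange) lies at the bottom on the vector side.

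Set out by gene list, 17 of the counted genes belonged to 14 of 32 lists, and no list had more than 3 counted genes in 1 direction. That is 2.76% of 617 tested list genes against 0.805% of all 8323 tested genes. The lists were chosen with earlier results of these data known, so nothing is read from this share or from those of single lists. The list of described SCL targets held ID2, ANGPT2 and HBD as lower among 22 tested genes (13.6%, against 0.709% of all tested genes), and the median of its 38 probe sets was −0.05. In all, 14 of them (36.8%) were below 0 under both cytokines and 8 (21.1%) above, against 25.3% and 23.5% of all tested. The 14 include the 4 counted probe sets of ID2, ANGPT2 and HBD. The erythroid membrane and iron list, with CD36 counted, had 12 probe sets (26.1%) on each side of 46 and a median of 0.01. The leukocyte surface list, with PTPRC, had 17 of 40 (42.5%) below 0 under both cytokines and 9 (22.5%) above. In 18 lists no gene was counted, among them integrins, the BCL2 family, DNA replication and STAT5 targets, and their medians ran from −0.17 to 0.12.

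**Figure D5:**
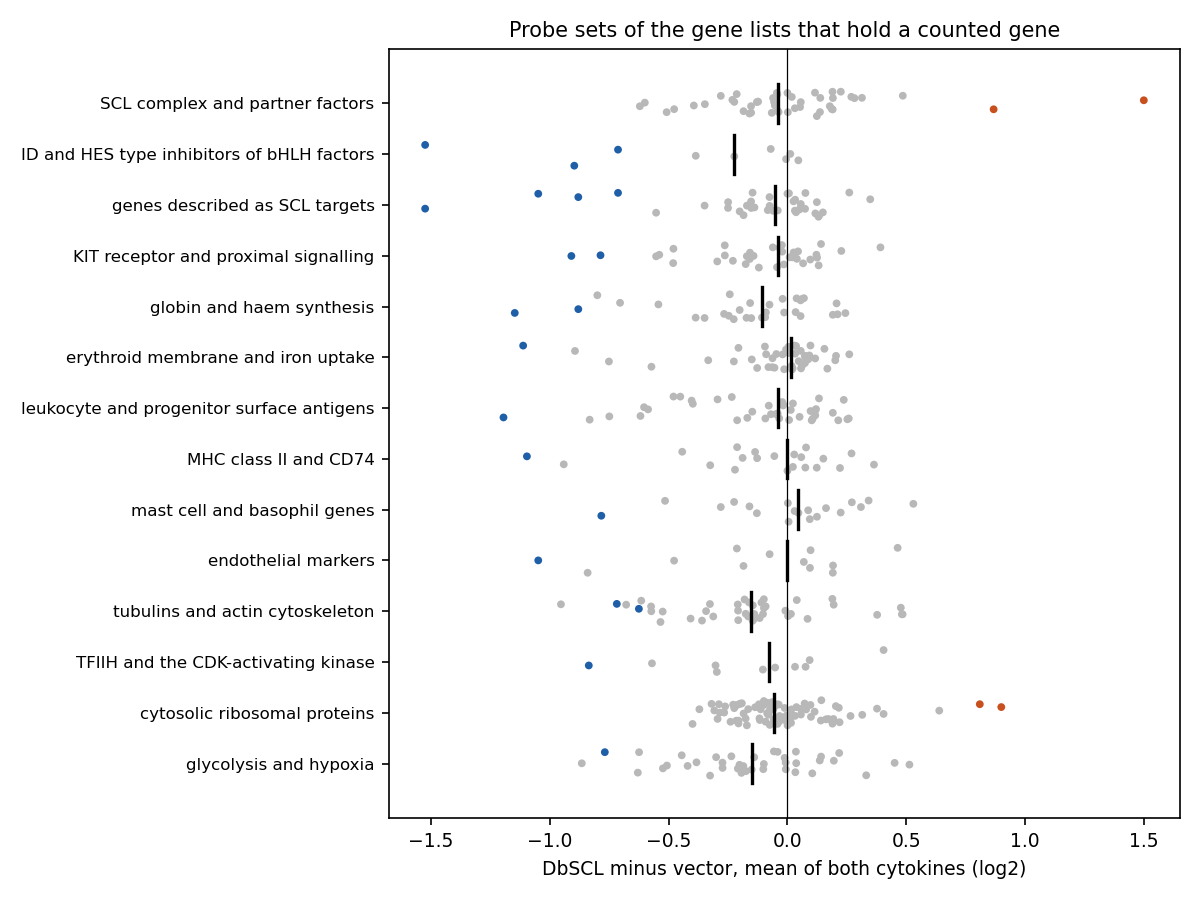
Pooled log2 difference of every tested probe set in the 14 gene lists that hold a counted gene, with the list median as a black bar and counted probe sets in blue (lower) or orange (higher). Medians lie between −0.22 (inhibitors of bHLH factors) and 0.05 (mast cell genes), with single counted genes far from them.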

How the data were processed

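RNA of 5 TF-1 cultures was biotinylated with the Affymetrix small-sample method, per the labels' protocols, and read on Affymetrix arrays. The authors deposited 1 log2 signal per probe set and array. The summary method and any normalization between arrays are not given in the sources used here. The log2 unit was inferred from the range of the deposited values, 2.08 to 13.77, and the column medians of 4.90 to 4.99 left them usable as deposited. Had the arrays been normalized to each other, a shift of most genes together would not be visible.

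Gene symbols came from the platform annotation. A single symbol was found for 19065 probe sets, more than 1 for 1043 and none for 2107, and 68 controls were set aside. Entrez identifiers of 19053 were found in the RefSeq gene table, and 0 symbols changed. Probe sets with a mean over the 5 arrays above the 40th percentile of non-control values were fitted with limma 3.58.1 in R 4.3.3 (construct plus cytokine, eBayes with a trend). The script was tested on simulated data. The groups, the list members and the genes described were chosen with earlier results of these data known. Named were the 15 genes with the largest agreeing differences in each direction, agreeing members of 32 lists and 12 factors under study. Alternatives changed the normalization, filter, probe set choice, cytokine term, fold threshold and arrays used. With 1 array per combination, the number of arrays limits the precision, and the p-values set each difference against the disagreement between SF and Epo, moderated across probe sets, with no spread between repeat cultures in it.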

Additional observations from a re-analysis of the deposited data

Results flagged for a closer look

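Of the factors under study, 2 differed in opposite directions under the cytokines, each on 1 array a side, and the difference between cytokines was not tested. TCF12, an E protein gene, was at −0.28 under SF and 0.19 under Epo on the log2 scale. EPOR, the Epo receptor gene, was at 0.39 under SF and −0.12 under Epo in its brightest probe set, while its other tested probe sets gave 0.10 and −0.08 under SF and 0.00 under Epo.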

How the results depend on the processing

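Counts of agreeing probe sets were recomputed under 9 alternatives and at a 2-fold threshold. Lower probe sets, 64 in the report, numbered 41 after quantile normalization, 39 with the mean of the probe sets of a gene and 2 at 2-fold. Higher ones, 8 in the report, numbered 5 with array medians subtracted (beside 81 lower), 5 with the brightest probe set of each gene (beside 46 lower), 2 with the mean of probe sets and 1 at 2-fold. Quantile normalization kept 35 of the 59 lower genes and 8 of the 8 higher ones, and loess 49 and 7. Higher probe sets with all 3 vector arrays below both DbSCL arrays, 4 in the report, numbered 2 with loess, with medians subtracted and with the mean of probe sets. The limma count was 0 in all alternatives (0 to 0 with each array left out in turn) except 1 without tied probe sets, where fewer probe sets were tested and the prior degrees of freedom went from 1.56 to 9.67. Directions turned in 5 named genes, and the cause was not tested. TCF12 gave 0.0153 after quantile normalization, 0.25 with GM-CSF as a further vector array, and −0.29 to 0.20 with an array left out. EPOR gave −0.10 to 0.36 with an array left out. TAL1 (0.14) and LDB1 (−0.0466) turned with GM-CSF as a further vector array, LDB1 also with the mean of probe sets (−0.0038), and RPL37A with its brightest probe set (−0.11). Settings without the cytokine term, with GM-CSF added or with an array left out give no agreement count, since no pair of matched differences is left or used. Those with GM-CSF added or an array left out had no cytokine term, so their cytokines were unbalanced. The labels carry no replicate numbers, so arrays were matched by cytokine, and without the cytokine term limma also called 0.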

Other observations

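Among lists without a counted gene, heat shock proteins and chaperonins had 21 of 35 probe sets, 60%, below 0 under both cytokines and 1 above, with a median pooled difference of −0.16, against 25.3% and 23.5% of all tested probe sets. HSP90AA1, the inducible cytosolic chaperone, gave −0.55 in its weakest probe set (9.42 under GM-CSF, 10.23 and 10.53 in vector under SF and Epo, 9.64 and 10.01 with DbSCL), while its brightest gave 0.00 and 0.10. CCT6A, a chaperonin subunit, was below 0 in both probe sets, at −0.27 and −0.57 in the brighter and −0.65 and −0.11 in the other. Mitosis and G2/M genes had 16 of 40 probe sets, 40%, below 0 under both cytokines and 5.0% above, with a median of −0.17. Of these NDC80, a kinetochore protein, was at −0.80 and −0.36, the spindle motor KIF11 at −0.39 and −0.58 and the checkpoint protein MAD2L1 at −0.45 and −0.32. The genes named here were picked with their values in view. None of these genes passed the limma test, and on the GM-CSF array NDC80 (5.81), KIF11 (5.23) and MAD2L1 (5.98) were no higher than on either DbSCL array.

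Translation factors divided. Of 77 probe sets, 46.8% were below 0 under both cytokines and 13.0% above, against 25.3% and 23.5% of all tested. No gene of this list was counted, and the members named here were picked with their values in view. EIF3M, a subunit of the initiation factor that holds the small ribosomal subunit, was at −0.51 and −0.68 in 1 probe set and −0.49 and −0.10 in the other, and MCTS1, a factor in ribosome recycling and reinitiation, was at −0.46 and −0.43. DOHH, which completes the hypusine modification of EIF5A, was higher by 0.50 and 1.07. EIF5A itself was higher in 2 of 3 probe sets (0.65 and 0.30, and 0.66 and 0.44) and gave −0.58 and 0.09 in the third. DOHH read 6.84 under GM-CSF, above both DbSCL arrays, 6.08 and 5.71 in vector under SF and Epo, and 6.58 and 6.78 with DbSCL. Hybridization and 28S controls were higher with DbSCL within each cytokine, as given above, and their part in these list values was not tested.

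Tied values were common: 5280 of the 11752 tested probe sets held equal values on at least 2 of the 4 arrays. A probe set with equal values in a matched pair cannot be below or above 0 under both cytokines. The shares over all tested probe sets include these and were not matched to the lists by signal. Shares of lists were computed on the values as deposited only.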
